A study of Mus musculus with 40 samples.

Results

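The interferon response and MHC class I genes of mouse brain were followed in 5 regions of mice that carried either alanine or threonine as residue 92 of type 2 deiodinase, which Dio2 encodes and which turns thyroxine into active thyroid hormone. The 35 genes were chosen by name for their roles, with no threshold on a value, and each was found on the microarray by its platform gene symbol, with 1 row per gene, among 19505 genes in all. The tissues were striatum, prefrontal cortex, hippocampus, amygdala and cerebellum. Each region held 4 arrays of genotype Ala92D2HY and 4 of genotype Thr92D2HY, called Ala and Thr here, which makes 10 groups and 40 arrays. All mice were on the strain labelled C56BL/6, were 8 to 10 weeks old, were kept at room temperature on chow and received no further treatment per the labels. Every array measured total RNA of dissected tissue, so fewer cells of a type and less RNA per cell cannot be told apart. Since the labels name no animal for any array, the p-values describe spread among arrays that could be technical. The fits treat the 40 arrays as independent, although arrays of several regions may come from 1 mouse, which would change the errors and intervals of comparisons between regions and of means over regions.

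Interferons are secreted when a cell senses viral nucleic acid. Type I interferons bind the receptor made of Ifnar1 and Ifnar2, and the receptor's kinases activate the transcription factor Stat2, which acts with Irf9 at the interferon-stimulated response element in front of antiviral genes. MHC class I molecules display peptides from inside the cell to CD8+ T cells, and their heavy chains (H2-K1, H2-D1), light chain (B2m), peptide transporter and immunoproteasome are also induced by interferon. In healthy brain most neurons show little MHC class I, and interferon-induced genes are low without infection or injury.

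The response element is shown for 6 members, since it is the DNA sequence through which type I interferon acts. RefSeq promoter windows of GRCm38.p6, short stretches around a start site, were found for 30 of the 35 members. The core letters GAAANNGAA, read on both strands, occurred in the windows of 15 of these 30 genes (50%), against 9.76% of the 27025 genes in that table. The gamma-activated site TTCNNNGAA, on both strands, occurred in 10 of 30 (33.3%) against 9.55% of genes. A window could hold both, and a match is a description of letters only. Below are stretches upstream of the start, written 5′ to 3′ along the gene's strand, with the matches to the core (or to its complement) in capitals: Stat2 (chr10:128270248-128270315, + strand), which had the largest regional difference, B2m (chr2:122147518-122147586, + strand), the light chain of MHC class I, Ifih1 (chr2:62646329-62646397, - strand), which had the smallest genotype p in the striatum, and Bst2 (chr8:71537558-71537632, - strand), Ifit1 (chr19:34640750-34640843, + strand) and Isg15 (chr4:156200846-156200926, - strand) as classical targets.
Stat2: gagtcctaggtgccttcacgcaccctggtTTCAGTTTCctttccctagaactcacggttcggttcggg
B2m: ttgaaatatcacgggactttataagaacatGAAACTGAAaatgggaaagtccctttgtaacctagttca
Ifih1: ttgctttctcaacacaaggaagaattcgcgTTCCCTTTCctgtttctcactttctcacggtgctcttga
Bst2: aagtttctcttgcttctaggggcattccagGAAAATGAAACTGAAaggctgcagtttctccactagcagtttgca
Ifit1: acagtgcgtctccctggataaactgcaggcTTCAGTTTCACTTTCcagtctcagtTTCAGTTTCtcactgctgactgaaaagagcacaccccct
Isg15: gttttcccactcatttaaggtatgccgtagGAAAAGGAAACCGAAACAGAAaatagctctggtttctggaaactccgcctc
Stat2, B2m and Ifih1 carried 1 match each in these stretches, Bst2 carried 2 that share bases, and Ifit1 and Isg15 carried 3. The windows of H2-K1 and H2-D1 held no match to the core letters.

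All signals are on the log2 scale of the deposited RMA values. The array medians of 23 background rows lay between 4.74 and 5.67, which marks the range where a gene cannot be told from no transcript. Array medians over all rows were 6.12 to 6.32. Probes differ in brightness, so levels are compared between arrays for 1 gene and not between genes. Region labels were checked against defining markers: Gabra6 and Pcp2 were highest in cerebellum, Drd2 and Rgs9 in striatum, Prox1 in hippocampus and Tbr1 in prefrontal cortex. Ala amygdala replicate 1 also carried cerebellar and striatal transcripts, with mean marker levels 3.41 and 3.43 log2 units above the mean of the amygdala arrays.

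Many members did not rise above background. Of the 35 members, 15 had a mean above the highest background median (5.67) in all 10 groups, 5 in some groups and 15 in none. The 5 that were above it in some groups were Ifit2, Oasl2, Bst2, Xaf1 and H2-D1. Several classical induced genes lay below the background range: group means were 2.55 to 2.99 for Irf7, the transcription factor that amplifies interferon production, 3.78 to 4.37 for Isg15, a ubiquitin-like modifier, 3.25 to 3.78 for Oas1a, which makes the activator of RNase L, 3.06 to 3.53 for Rsad2, which makes the antiviral enzyme viperin, and 3.87 to 4.21 for Psmb9, an immunoproteasome subunit. These 5 did not exceed log2 4.60 on at least 4 arrays and were left out of the tests, and the other 30 members entered them with 14978 genes in all. H2-D1 passed this filter through cerebellum alone, with 8 arrays above it there and 2 elsewhere, so it had to differ between regions. The 30 are not all members.

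**Figure D1:**
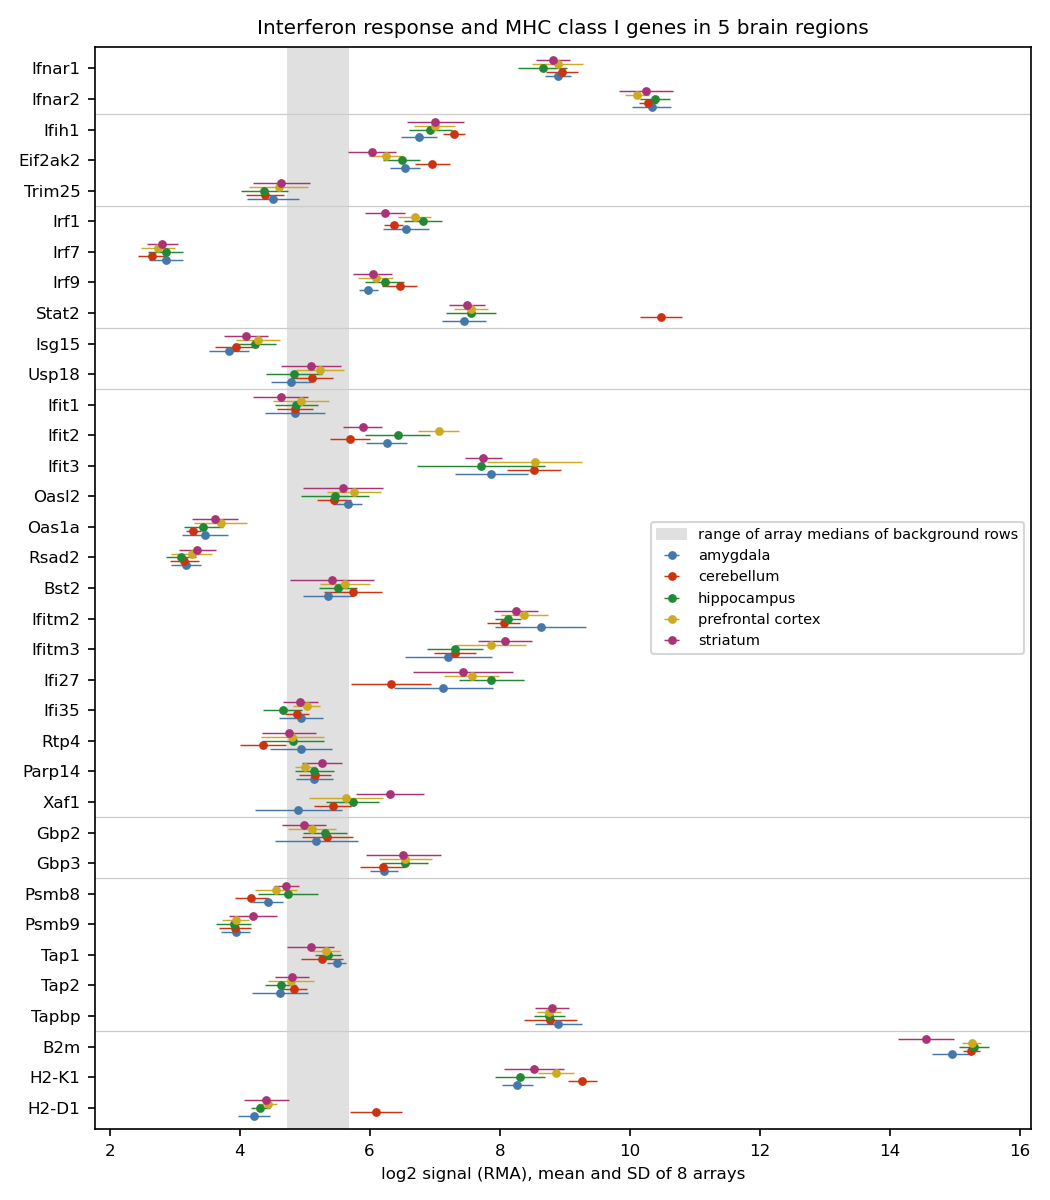
Mean log2 signal of each of the 35 members in 5 regions, with the SD of 8 arrays (4 Ala and 4 Thr) as bars; grey marks the range of array medians of the background rows, 4.74 to 5.67. Members are ordered by role, with the receptors at the top and MHC class I at the bottom. Stat2 and H2-D1 in cerebellum stand apart from the other 4 regions, and Irf7, Oas1a and Rsad2 lie left of the grey band everywhere.

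The receptor genes were above the background range on every array. The lowest, median and highest of 8 Ifnar1 arrays were 8.66, 8.89 and 9.32 in amygdala, 8.51, 9.04 and 9.27 in cerebellum, 7.87, 8.81 and 9.08 in hippocampus, 8.37, 8.87 and 9.62 in prefrontal cortex and 8.39, 8.88 and 9.14 in striatum. For Ifnar2 they were 9.77, 10.31 and 10.78 in amygdala, 9.97, 10.29 and 10.46 in cerebellum, 9.98, 10.40 and 10.76 in hippocampus, 9.74, 10.14 and 10.40 in prefrontal cortex and 9.84, 10.23 and 11.18 in striatum. All 5 regions overlapped for both receptor genes, and neither passed the test in any region.

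B2m, which makes the light chain, was lowest in striatum. Its lowest, median and highest arrays were 14.48, 14.91 and 15.50 in amygdala, 15.06, 15.24 and 15.47 in cerebellum, 15.06, 15.26 and 15.77 in hippocampus, 15.04, 15.23 and 15.47 in prefrontal cortex and 13.57, 14.62 and 14.94 in striatum. The striatal arrays lay below every array of cerebellum, hippocampus and prefrontal cortex and overlapped those of amygdala.

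Each region was then compared with the mean of the other 4 by limma, with both genotypes weighted equally. To be called, a gene needed a Benjamini-Hochberg adjusted p below 0.05 over all 14978 genes together with an absolute log2 difference of 1 or more. In cerebellum 3 of 30 members were called, Stat2 and H2-D1 higher and Ifi27 lower, while 18.7% of all genes tested were called there (8.69% higher and 10.1% lower). In the other regions 0 of 30 members were called, where the share of all genes was 5.84% in amygdala, 5.91% in hippocampus, 5.21% in prefrontal cortex and 10.9% in striatum. The members' count in cerebellum was thus below the share over all genes. It includes H2-D1, which passed the filter through cerebellum alone, so its call is not support for a regional difference. The list as a whole had a median difference of 0.012 in cerebellum, against -0.005 over all genes. In prefrontal cortex 21 of 30 members were positive (70%, against 46.9% of all genes), with a median of 0.099 against -0.018. Among the prefrontal arrays, Thr replicate 30 had the highest mean of the members, 0.367 above the region. The positive members were 13 in amygdala (all genes 47.2%), 16 in cerebellum (49.6%), 15 in hippocampus (45.6%) and 14 in striatum (49.9%).

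Among the transcription factors, Stat2 was 2.96 ± 0.12 log2 units (SE) higher in cerebellum, or 7.80-fold (limma, adjusted p = 1.28e-23). Stat2 is the component of the type I interferon factor that carries its transactivation domain. Its cerebellar arrays were 10.77, 11.01, 10.50 and 10.31 in Ala and 10.58, 10.08, 10.08 and 10.53 in Thr. The lowest, median and highest of 8 arrays were 7.12, 7.43 and 8.18 in amygdala, 6.83, 7.63 and 7.99 in hippocampus, 7.25, 7.54 and 7.96 in prefrontal cortex, and 7.14, 7.57 and 7.77 in striatum. Every cerebellar array lay above every other array, and the 4 forebrain regions overlapped one another. The highest of them, 8.18, was Ala amygdala replicate 1, the array that also carried cerebellar and striatal transcripts. The part of those tissues in this value was not tested. The lower values of the other regions against their mean restate the cerebellar level: against the other 3 forebrain regions, the amygdala differed by -0.09 ± 0.13 and the hippocampus by 0.06 ± 0.13. The annotation overlaps Stat2 with Apof, whose own row was at 2.83 to 3.14 in the 5 regions, below the background range.

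The partners of Stat2 differed by much less. Irf9, its DNA-binding partner, was 0.38 ± 0.12 higher in cerebellum (adjusted p = 0.00462), at 6.11, 6.44 and 6.91 (lowest, median, highest) against 5.74, 5.97 and 6.28 in amygdala and 5.64, 6.26 and 6.68 in hippocampus. It was at 5.70, 6.07 and 6.40 in prefrontal cortex and 5.67, 6.03 and 6.47 in striatum, so its regions overlapped. Irf1, a transcription factor induced mainly by interferon gamma, was 0.36 ± 0.11 higher in hippocampus (adjusted p = 0.00888) and 0.37 log2 units lower in striatum (difference -0.37 ± 0.11, adjusted p = 0.00384). Irf7 had lowest, median and highest arrays of 2.55, 2.83 and 3.37 in amygdala, 2.41, 2.58 and 3.15 in cerebellum, 2.42, 2.86 and 3.35 in hippocampus, 2.28, 2.79 and 3.15 in prefrontal cortex and 2.45, 2.81 and 3.13 in striatum. It was below the background range on all 40 arrays and has no test.

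The MHC class I heavy chain gene H2-D1 had a mean above the background range in cerebellum only. Its cerebellar arrays were 6.31, 6.88, 5.92 and 6.15 in Ala and 5.56, 6.20, 5.98 and 5.81 in Thr. The lowest, median and highest arrays were 3.82, 4.20 and 4.53 in amygdala, 4.04, 4.35 and 4.53 in hippocampus, 4.15, 4.49 and 4.58 in prefrontal cortex and 3.95, 4.42 and 5.01 in striatum. No array of another region reached the cerebellar range, and all 32 lay below the median of the background rows on the same array. The measured difference was 1.76, from means of 6.10 and 4.35. No p-value is given, because the filter kept this gene through its cerebellar arrays alone. Since the other regions give only a bound, H2-D1 was at least 1.70-fold higher in cerebellum, with each other array set to its background median. H2-K1, the other classical heavy chain gene, was 0.78 ± 0.13 higher in cerebellum, or 1.71-fold, which passed the test but not the size (adjusted p = 2.67e-06). Its lowest, median and highest arrays were 9.01, 9.22 and 9.66 in cerebellum, 7.99, 8.30 and 8.65 in amygdala, 7.67, 8.38 and 8.94 in hippocampus, 8.43, 8.90 and 9.22 in prefrontal cortex and 7.90, 8.48 and 9.25 in striatum. Cerebellar H2-K1 thus overlapped the highest prefrontal and striatal arrays, and against the other 3 forebrain regions H2-K1 was 0.50 ± 0.14 higher in prefrontal cortex (adjusted p = 0.00591). H2-K1 and H2-D1 are close paralogs on chromosome 17 and their probes may share targets, so the 2 values are uncertain as measurements of separate genes.

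The light chain and the antigen processing genes were tested in the same way. B2m differed by 0.24 ± 0.11 in cerebellum, short of the threshold (adjusted p = 0.0578), and was 0.29 ± 0.11 higher in hippocampus (adjusted p = 0.0443) and lower in striatum (difference -0.64 ± 0.11, adjusted p = 4.1e-06). Of the 4 tested antigen processing genes, Psmb8, an immunoproteasome subunit, was lower in cerebellum (-0.43 ± 0.13, adjusted p = 0.00311) and Tap1, a chain of the peptide transporter, was lower in striatum (-0.27 ± 0.11, adjusted p = 0.0445). Neither gene had a group mean above the background range (4.10 to 4.92 for Psmb8 and 5.03 to 5.54 for Tap1), so these differences are between levels that cannot be told from no transcript. Tap2 and Tapbp, which makes the loading chaperone tapasin, passed in no region. In total 7 members lie in the MHC region of chromosome 17 between 33919478 and 35267497 (GRCm38.p6). Of the 6 tested, H2-D1 and H2-K1 were higher in cerebellum. H2-D1 passed the filter through cerebellum alone, so its difference there is not support for a regional one.

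**Figure D2:**
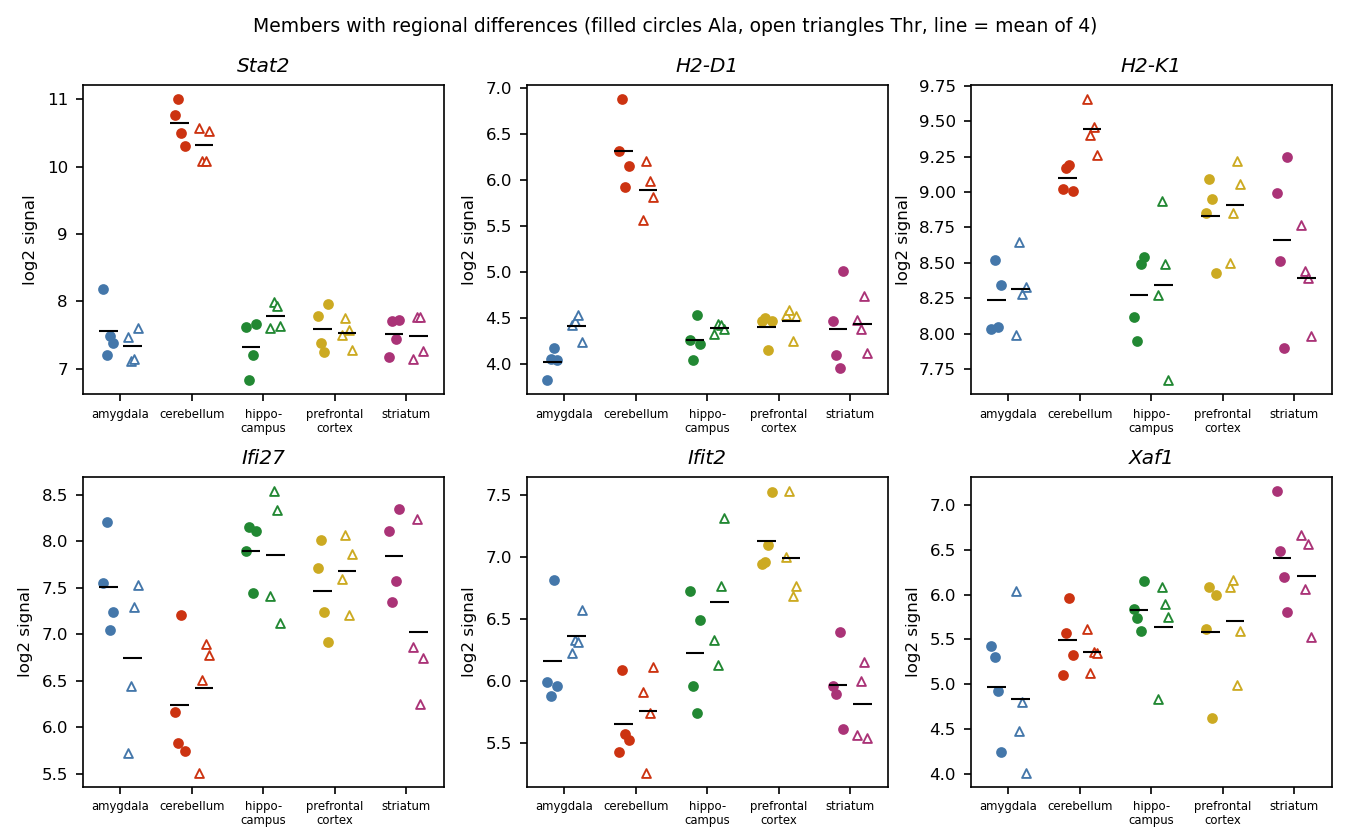
Log2 signal of 6 members on every array by region, with filled circles for Ala, open triangles for Thr and a line at the mean of 4. Cerebellar Stat2 (10.08 to 11.01) and H2-D1 (5.56 to 6.88) lie above all other arrays, while H2-K1, Ifi27, Ifit2 and Xaf1 overlap between regions; the vertical axes do not start at 0 and differ between panels.

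Without the size limit, 7 of 30 members were higher and 4 lower in cerebellum, where 29.4% of all genes were higher and 28.1% lower. In amygdala 1 member was higher and 4 were lower (15.3% and 17.3% of all genes), and in hippocampus 3 were higher and 3 lower (13.8% and 14.1%). In prefrontal cortex 1 was higher and 2 were lower (12.7% and 13.1%), and in striatum 2 were higher and 7 lower (20.8% and 23.2%). The members' share was below that of all genes in each case but the 7 lower members in striatum, whose share was close to it. H2-D1 is counted in every region, as higher in cerebellum and lower elsewhere. It passed the filter through cerebellum alone, so its part in these counts is not support for a regional difference. With a limit of 0.5 log2 units, 3 members were called in amygdala (18.3% of all genes), 7 in cerebellum (39.4%), 2 in hippocampus (16.2%), 2 in prefrontal cortex (15%) and 5 in striatum (26.8%). At this limit H2-D1 is among those of amygdala and cerebellum, and the same reservation holds.

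Some of these differences restate the cerebellum, which enters the mean of the other regions. Against the other 3 forebrain regions, at any size, 0 members were higher and 2 lower in amygdala (10.7% and 11.4% of all genes), namely Ifitm3 and Xaf1. In hippocampus 2 were higher and 0 lower (11.3% and 10.4%), namely Irf1 and B2m. In prefrontal cortex 4 were higher and 0 lower (10.3% and 10.6%), namely Ifit2, Ifit3, B2m and H2-K1. In striatum 2 were higher and 5 lower (19.7% and 21%): Ifitm3 and Xaf1 were higher, and Eif2ak2, Irf1, Ifit2, Tap1 and B2m were lower.

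The sensor genes gave 2 of the cerebellar members: Eif2ak2, the kinase PKR that halts translation on double-stranded RNA, was 0.62 ± 0.12 higher (adjusted p = 1.62e-05), and Ifih1, the RNA sensor MDA5, was 0.37 ± 0.12 higher (adjusted p = 0.00789). Eif2ak2 was also lower in striatum (-0.51 ± 0.12, adjusted p = 0.000378). Its highest amygdala value, 7.07, was on Ala replicate 1, and the part of other tissue in that value was not tested. Trim25, a ubiquitin ligase that activates RIG-I, passed in no region.

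Of the 12 tested antiviral effectors, 11 were positive in prefrontal cortex (-0.17 to 0.99), where 46.9% of all genes were positive, and 1 passed at any size. On Thr prefrontal cortex replicate 30 the effector mean was 0.58 above the region, and the count without that array is not given here. The positive effectors were 4 in cerebellum (all genes 49.6%), 6 in amygdala (47.2%), 6 in hippocampus (45.6%) and 7 in striatum (49.9%). Ifi27, a mitochondrial protein gene strongly induced by interferon, was lower in cerebellum by 1.17 log2 units (difference -1.17 ± 0.22, or 2.26-fold lower, adjusted p = 1.3e-05) and higher in hippocampus by 0.76 ± 0.22 (adjusted p = 0.00689). Against the other 3 forebrain regions the hippocampal difference was 0.50 ± 0.23 and did not pass (adjusted p = 0.121). Its cerebellar arrays were 6.16, 5.83, 7.20 and 5.74 in Ala and 5.51, 6.51, 6.89 and 6.78 in Thr, and the lowest, median and highest were 7.12, 8.00 and 8.54 in hippocampus. They were 5.72, 7.26 and 8.21 in amygdala, 6.91, 7.65 and 8.06 in prefrontal cortex and 6.25, 7.45 and 8.35 in striatum. The cerebellar arrays overlapped those of every other region. Ifit2, which binds viral RNA and restrains its translation, was 0.99 ± 0.14 higher in prefrontal cortex, just below the size limit (adjusted p = 4.86e-07). It was lower in cerebellum (-0.70 ± 0.14, adjusted p = 4.27e-05) and striatum (-0.48 ± 0.14, adjusted p = 0.0055). Its lowest, median and highest arrays were 6.68, 6.98 and 7.53 in prefrontal cortex and 5.26, 5.66 and 6.11 in cerebellum, with no overlap between these regions.

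Some members are neighbours in the genome. Ifit1, Ifit2 and Ifit3 lie together on chromosome 19 (34550550 to 34650009, GRCm38.p6). In cerebellum Ifit2 was lower and Ifit3 higher (0.56 ± 0.24, adjusted p = 0.0408). In prefrontal cortex the Ifit3 difference was 0.58 ± 0.24 (adjusted p = 0.069), and against the other 3 forebrain regions Ifit3 was 0.76 ± 0.24 higher there (adjusted p = 0.0199), beside Ifit2 at 0.87 ± 0.15 (adjusted p = 1.37e-05). In striatum the Ifit3 difference was -0.41 ± 0.24 (adjusted p = 0.169). Ifit1 passed in no region, and the differences between these genes were not tested. Ifit3 has a close copy, Ifit3b, with a cerebellar difference of 0.86 ± 0.23 on its own row, so this pair may not be measured separately. Ifitm2 and Ifitm3, restriction factors of viral entry that sit side by side on chromosome 7, passed in separate regions: Ifitm3 was 0.66 ± 0.19 higher in striatum (adjusted p = 0.00395) and Ifitm2 was 0.43 ± 0.16 higher in amygdala (adjusted p = 0.0361). Against the other 3 forebrain regions Ifitm2 in amygdala did not pass (0.38 ± 0.17, adjusted p = 0.0999). Xaf1, an antagonist of the apoptosis inhibitor XIAP, was 0.88 ± 0.20 higher in striatum (adjusted p = 0.000277) and lower in amygdala (-0.88 ± 0.20, adjusted p = 0.000493). Its 8 striatal arrays were 5.53 to 7.16 and its amygdala arrays 4.01 to 6.04, with an amygdala mean of 4.90 ± 0.67 (SD, n = 8) inside the background range. The oligodendrocyte markers moved the same way in both regions: all 5 tested were called higher in striatum (median 2.41) and all 5 lower in amygdala (median -2.30). Xaf1 differed by 0.17 in hippocampus, 0.05 in prefrontal cortex and -0.22 in cerebellum. The medians of the oligodendrocyte markers were 0.45, -1.02 and 0.52 there, so the signs were unlike in prefrontal cortex and cerebellum. The oligodendrocyte list mean per array was 13.08 to 14.08 in striatum and 8.07 to 11.11 in amygdala, and its part in the Xaf1 values was not tested. Rtp4, a receptor transporter induced by interferon, was lower in cerebellum (-0.47 ± 0.17, adjusted p = 0.0195), at a level inside or below the background range. Oasl2, Bst2, Ifi35, Parp14, Usp18, Gbp2 and Gbp3 passed in no region.

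Markers of other cells moved with region. All 11 tested microglia markers were lower in cerebellum, with a median difference of -1.87, and all 11 were higher in striatum, with a median of 1.00. The microglia list mean per array was 6.18 to 6.57 in cerebellum and 7.69 to 8.74 in the other regions. Of 10 endothelial markers, 0 passed in cerebellum and 4 were higher in striatum. Of 6 astrocyte markers, 4 were higher and 1 lower in cerebellum, the latter Slc1a2, a glutamate transporter gene (-2.20 ± 0.14), and 1 was higher and 4 lower in striatum. Of 5 oligodendrocyte markers, 3 were higher in cerebellum at any size and 5 lower in prefrontal cortex. Of the blood leukocyte list, 3 of 6 genes on the array were bright enough to test, and the list mean was 4.15 to 4.97 outside the striatum, where it was 5.27 to 5.98. The striatal level comes from Cd4, which was 12.57 ± 0.88 in striatum (SD, n = 8) and had means of 6.38 to 7.20 elsewhere. Ptprc, the pan-leukocyte gene CD45, had means of 5.47 to 6.11 with 5.93 in striatum, and Cd3e, Ms4a1 and Nkg7 lay below the background range in all 5 regions. Stat2, H2-D1 and H2-K1 were highest where the microglia list was lowest, and B2m was lowest where it was highest, and the part of these cells in the regional values was not tested.

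The study's main comparison was between genotypes, given here as log2 Ala minus Thr. In 0 of the 5 regions was a member called. The share of all genes called was 0.12% in amygdala, 0% in cerebellum, 0% in hippocampus, 0% in prefrontal cortex and 0.0801% in striatum, and 0.02% for the mean of the 5 regions, where again 0 of 30 members were called by limma. At an unadjusted p under 0.05 there were 2 members in amygdala (6.67%, all genes 5.33%), 2 in cerebellum (6.67%, all genes 1.94%), 1 in hippocampus (3.33%, all genes 3.14%), 1 in prefrontal cortex (3.33%, all genes 2.33%), 4 in striatum (13.3%, all genes 6.14%) and 1 in the mean (3.33%, all genes 5.37%). The 95% intervals of the members' mean differences lay between -0.46 and 0.60, so a mean signal difference of 1 log2 unit lies outside all of them. In single regions the intervals reached from -1.44 to 1.61 and such a difference lies within some. For members within or below the background range, the intervals bound the signal and cannot exclude such a difference in transcript.

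**Figure D3:**
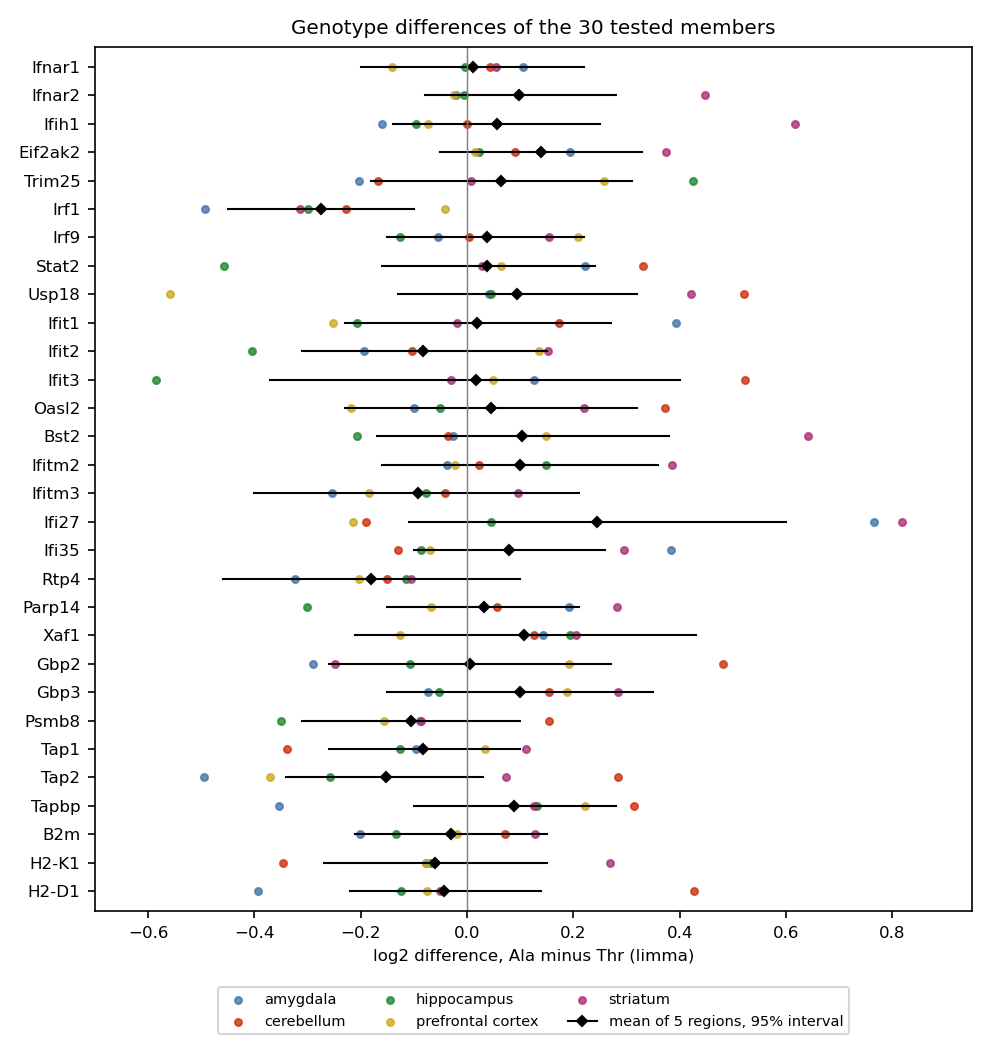
Log2 difference, Ala minus Thr, of the 30 tested members: coloured points are the 5 regions and black diamonds the mean of the 5 regions with its 95% interval. The intervals of the mean cross 0 except that of Irf1, whose difference of -0.28 did not pass after adjustment over all genes, and regional points of a member mostly fall on both sides of 0.

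Among the transcription factors, Irf1 had the smallest p of any member for the mean of the regions, -0.28 ± 0.08 (limma, adjusted p = 0.655), and it was negative in 5 of 5 regions. In amygdala, where its difference was -0.49 ± 0.19 (adjusted p = 0.787), the arrays were 6.24, 6.58, 6.08 and 6.35 in Ala and 6.94, 6.40, 6.83 and 7.06 in Thr. The 2 genotypes overlapped through Ala replicate 2 and Thr replicate 6. In cerebellum the Ala arrays were 6.10, 6.37, 6.27 and 6.26 and the Thr arrays 6.42, 6.40, 6.51 and 6.59, with all Ala arrays below all Thr arrays. Irf1 in hippocampus, prefrontal cortex and striatum differed by -0.30 ± 0.19, -0.04 ± 0.19 and -0.31 ± 0.19, with overlap.

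Stat2 had the smallest p in hippocampus, -0.46 ± 0.22 (adjusted p = 1.00). Its arrays were 7.62, 6.83, 7.21 and 7.66 in Ala and 7.60, 7.99, 7.94 and 7.63 in Thr, which overlap. In cerebellum, where Stat2 is bright, the difference was 0.33 ± 0.22 with overlapping arrays, and the mean over regions was 0.04 ± 0.10. Irf9 differed by 0.04 ± 0.09 over the regions, and its regional values ran from -0.13 in hippocampus to 0.21 in prefrontal cortex.

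In striatum the sensor and receptor genes were mostly positive. Ifih1 had the smallest p there, 0.62 ± 0.22 (adjusted p = 0.693). Its arrays were 7.09, 6.98, 7.74 and 7.48 in Ala and 6.48, 6.64, 7.08 and 6.62 in Thr, which overlap by 1 array on each side. Ifnar2 in striatum differed by 0.45 ± 0.20 (adjusted p = 0.79), and this rests on 1 array: the Ala values were 10.23, 10.26, 10.23 and 11.18, and the Thr values 9.87, 10.33, 9.84 and 10.08. Bst2, which makes the tether that holds budding viruses, and Ifi27 differed by 0.64 ± 0.30 and 0.82 ± 0.39 there (adjusted p = 0.806 for both). All 8 tested choroid plexus markers were positive in the same striatal comparison, with a median of 2.50, none called. The list mean per array was 8.40 to 11.47 in Ala and 6.77 to 7.85 in Thr, and its part in these values was not tested. Of the same 8 markers, 6 were positive in amygdala (median 0.49) and 0 in cerebellum (-0.81). In hippocampus 1 was positive (-0.45) and in prefrontal cortex 6 (0.06), with none called. Ifnar1 differed by 0.05 ± 0.23 in striatum and by 0.01 ± 0.10 over the regions.

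Usp18, the protease that removes ISG15 and dampens the receptor, had differences of opposite sign in 2 regions. In prefrontal cortex it was the member with the smallest p, -0.56 ± 0.25 (adjusted p = 1.00), with Ala arrays of 4.97, 5.06, 4.95 and 4.83 and Thr arrays of 5.48, 5.86, 5.61 and 5.10. In cerebellum it differed by 0.52 ± 0.25 (adjusted p = 1.00), with Ala arrays of 5.29, 5.35, 5.64 and 5.19 and Thr arrays of 4.69, 4.79, 4.86 and 5.06. The genotypes did not overlap in either region. The limma F-test of whether the 5 regional differences are equal gave F = 3.00 for Usp18 (adjusted p = 1.00), and 0 of 30 members were called in it, against 0.0401% of all genes. All of these Usp18 values lie within or close to the background range.

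**Figure D4:**
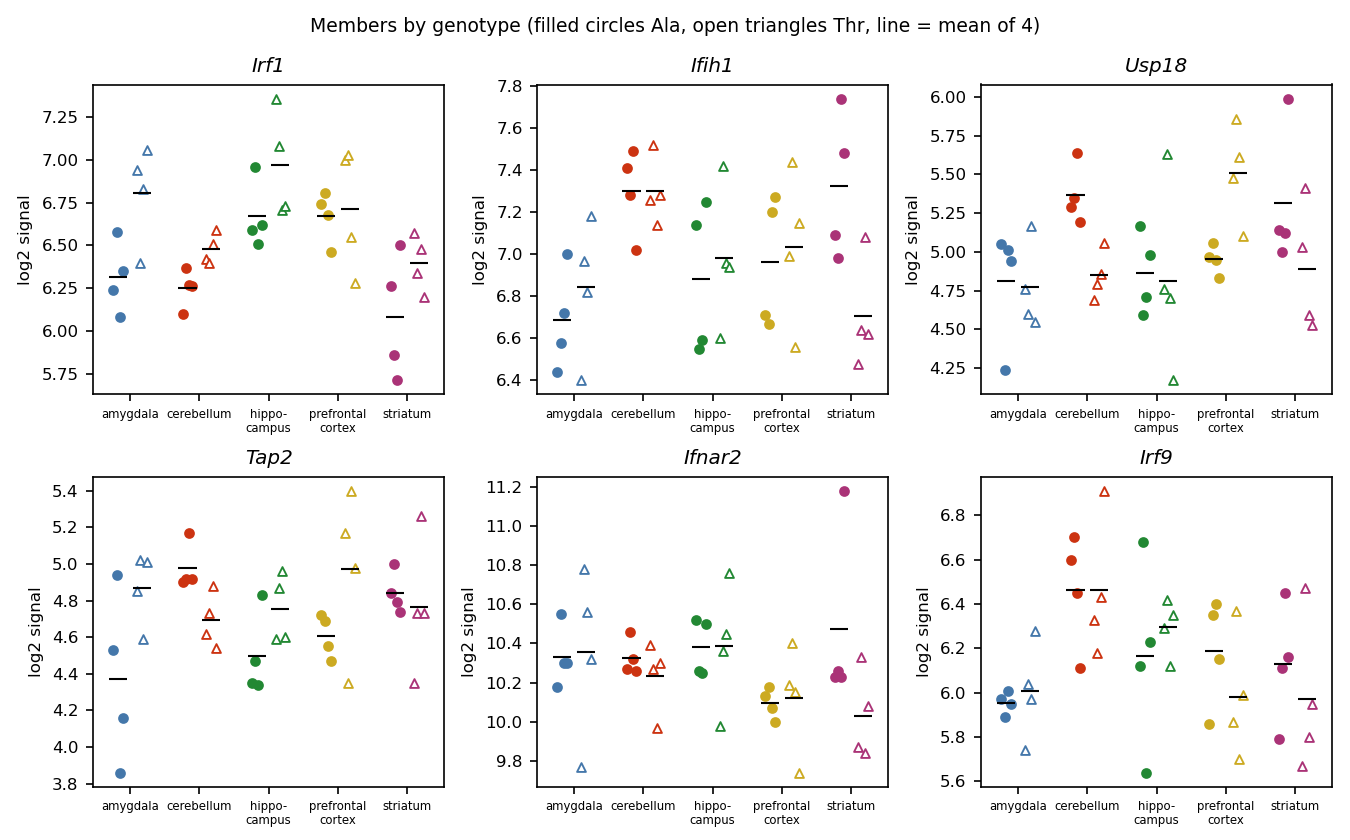
Log2 signal of 6 members on every array by region and genotype, with filled circles for Ala, open triangles for Thr and a line at the mean of 4; vertical axes do not start at 0. Irf1 is lower in Ala in each region by its mean, Usp18 is separated in opposite directions in cerebellum and prefrontal cortex, and the striatal Ifnar2 difference rests on the Ala array at 11.18.

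The 3 MHC class I genes were all negative in amygdala (-0.39 to -0.08), hippocampus (-0.13 to -0.07), prefrontal cortex (-0.08 to -0.02) and the mean of the regions (-0.06 to -0.03), and none passed. In cerebellum and striatum 2 of 3 were positive. In cerebellum H2-D1 differed by 0.43 ± 0.20 (adjusted p = 1.00, the smallest p there) and H2-K1 by -0.35 ± 0.24. The H2-K1 arrays were 9.02, 9.17, 9.19 and 9.01 in Ala, all below the 9.66, 9.40, 9.46 and 9.26 of Thr, whereas the H2-D1 arrays given above overlapped. In amygdala H2-D1 was at 3.82, 4.05, 4.17 and 4.04 in Ala and at 4.42, 4.46, 4.53 and 4.24 in Thr, below the background range throughout. B2m differed by -0.03 ± 0.09 over the regions, from -0.20 ± 0.19 in amygdala to 0.13 ± 0.19 in striatum. The 4 tested antigen processing genes ran from -0.15 to 0.09 over the regions, with Tap2 at -0.15 ± 0.09.

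Arrays of the 2 genotypes did not overlap for 5 of 30 members in cerebellum (16.7%, against 2.66% of all genes): Usp18, Gbp2 and Tap2 were above in Ala, and Irf1 and H2-K1 below. Group means of Usp18 (4.77 to 5.51), Gbp2 (4.86 to 5.59) and Tap2 (4.37 to 4.98) lay within or below the background range. The count was 1 in amygdala (H2-D1, 3.33% against 3.19%), 1 in prefrontal cortex (Usp18, 3.33% against 1.66%), 0 in hippocampus (2.73% of all genes) and 0 in striatum (1.98%). In cerebellum the 5 members thus split in direction, and none of them had an adjusted p below 1.00. The choroid plexus list mean per cerebellar array was 6.10 to 9.60 in Ala and 7.69 to 9.92 in Thr, and its part in these values was not tested. Over the member list, 10 of 30 differences were positive in amygdala, 19 in cerebellum, 7 in hippocampus, 11 in prefrontal cortex and 23 in striatum. The medians were -0.075, 0.064, -0.102, -0.055 and 0.14, against 0.006, 0.005, 0.006, 0.003 and 0.023 over all genes. Eif2ak2 was positive and Irf1 and Rtp4 were negative in all 5 regions, and the other 27 members had mixed signs.

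The list medians of amygdala, hippocampus and prefrontal cortex depended on single arrays. After centring on the region, the mean of the 30 members was highest on Thr prefrontal cortex replicate 30 (0.367), Ala striatum replicate 36 (0.339) and Thr hippocampus replicate 22 (0.309). On replicate 30, 18 of 30 members had their highest prefrontal value, against 17.7% of all genes. On replicate 22 it was 10 of 30 (all genes 10.5%), among them Ifit3 at 9.72, where the other 7 hippocampal arrays were 6.74 to 8.36, and B2m at 15.77, where they were 15.06 to 15.39. On replicate 36 it was also 10 of 30, against 25.6% of all genes, and this array had a choroid plexus marker mean 2.96 above the region. These arrays were singled out for their member means, so the counts describe them and test nothing. Without replicate 30 the prefrontal median turned to 0.055 with 20 of 30 positive, without replicate 22 the hippocampal median was -0.013 with 13 positive, and without replicate 36 the striatal median was 0.127 with 18 positive. Without Thr amygdala replicate 6 the amygdala median turned to 0.007 with 15 positive.

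**Figure D5:**
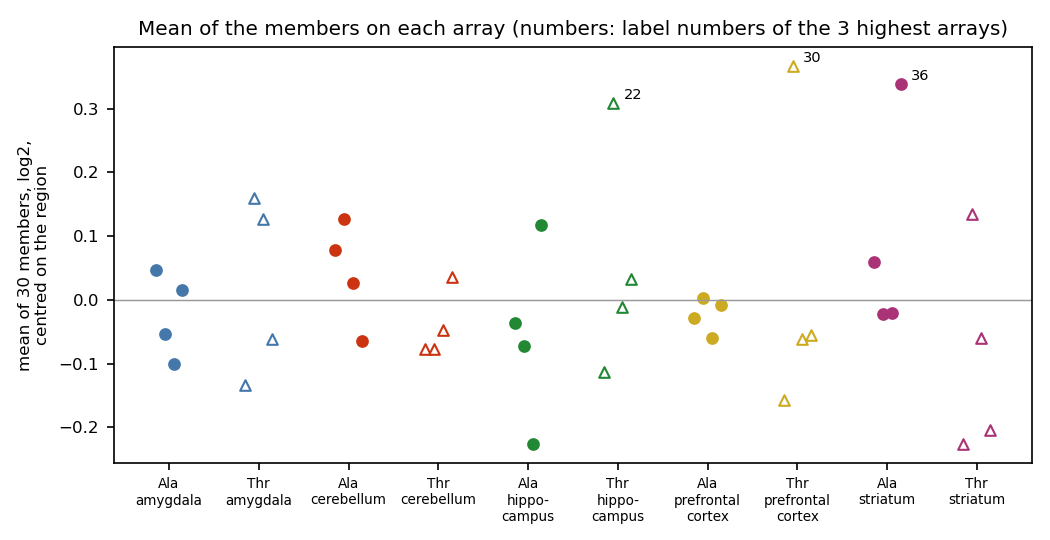
Mean of the 30 tested members on each array after centring each gene on its region (log2), by genotype and region, 4 arrays a group. Thr hippocampus replicate 22 (0.309), Thr prefrontal cortex replicate 30 (0.367) and Ala striatum replicate 36 (0.339) lie highest, and the other arrays lie between -0.226 and 0.160.

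Members varied together weakly between arrays of a group. Over the 435 member pairs the median Pearson r of deviations from the group means was 0.111 over 40 arrays, and 2.53% of pairs exceeded 0.5, against a median of 0 and 0.92% among sampled pairs of all genes. After Benjamini-Hochberg adjustment of a permutation test within groups 0 pairs passed, and 63 had an unadjusted p under 0.05 (14.5%). The share of sampled pairs of all genes under that p is not given here, so the 14.5% has no comparison. The highest was Ifnar2 with Oasl2, at r = 0.61 and rho = 0.567 (permutation p = 0.00478 and 0.00167, adjusted p = 0.186 and 0.145), and r was 0.508 without the 2 arrays farthest out. The pair was positive within each region, from 0.385 in hippocampus to 0.892 in striatum. In striatum, Ala replicate 36 was the highest array for both genes (Ifnar2 11.18, Oasl2 6.82), and the striatal r without it is not given here. The pair was picked as the highest of the 435, so its signs by region are not further support.

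Other genes of the pathway were taken from a list of 89, of which 77 were on the array and 57 bright enough to test. Between genotypes 0 of 57 were called in any region or in the mean. Between regions, 5 of 57 were called in cerebellum (8.77%, below the 18.7% of all genes): Irf3, the factor that starts interferon transcription, was 1.05 ± 0.13 higher, and 4 were lower, Tlr7 (-1.85 ± 0.16), a sensor of single-stranded RNA, Psme1 (-1.53 ± 0.13), the proteasome activator PA28 alpha, Herc6 (-1.52 ± 0.20), the mouse ligase for ISG15, and Psmb10 (-1.01 ± 0.13), an immunoproteasome subunit. Tlr7 and the proteasome genes were thus low where H2-D1 was high. In prefrontal cortex Herc6 was 2.11 ± 0.20 and Samd9l 1.08 ± 0.19 higher, the region where Ifit2 was highest. Ifngr2, a chain of the interferon gamma receptor, was 1.50 ± 0.12 higher in hippocampus and lower in striatum (-1.41 ± 0.12). Irf1 was also highest in hippocampus and lowest in striatum, and a link between these genes was not tested. Ly6e was 1.16 ± 0.11 higher in hippocampus and Psme1 1.15 ± 0.13 higher in amygdala. Ifngr1, the other chain of that receptor, stayed below the size limit. Its largest difference was 0.43 ± 0.09 in striatum, where Ifngr2 was lowest. Mx1, a dynamin-like GTPase, had region means of 3.83 to 4.02 and was too dim to test. Nlrc5 was not analysed here. The calls of these genes were 2 of 57 in hippocampus (3.51%, all genes 5.91%), 2 in prefrontal cortex (3.51%, all genes 5.21%), 1 in amygdala (1.75%, all genes 5.84%) and 1 in striatum (1.75%, all genes 10.9%). At any size, 6 of 57 were higher and 17 lower in cerebellum (29.4% and 28.1% of all genes), and 13 were higher and 1 lower in prefrontal cortex (12.7% and 13.1%). They were 7 and 4 in amygdala (15.3% and 17.3%), 8 and 3 in hippocampus (13.8% and 14.1%) and 8 and 11 in striatum (20.8% and 23.2%).

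Dio2 itself differed by 0.03 ± 0.09 over the regions, and the array cannot show which amino acid the gene encodes, so it does not check the genotype labels.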

How the data were processed

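The 40 microarrays cover 10 groups of region and genotype. Values are log2 signals deposited by the authors, who used RMA per the submitters' processing notes, a method that subtracts background, normalizes between arrays and combines probes. The version is not given in the sources used here. No scaling was added. The platform annotation gave 1 gene symbol to 19572 of 28846 rows and none to 9274. For 19505 genes the row with the highest mean was kept, and 14978 genes exceeded log2 4.60, which is the 30th percentile of the table, on 4 or more arrays. Group means were modelled in R 4.3.3 by limma 3.58.1, using lmFit and a trended eBayes with 30 residual degrees of freedom, and every adjusted p of a gene in the text is from it, over all genes tested. The fit was tested on simulated data.

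The members and lists were chosen with earlier results of these data known. Values by array, or the lowest, median and highest of the 8 arrays of a region, are given for members called, for the member with the smallest p in each genotype comparison, and always for Ifnar1, Ifnar2, Stat2, Irf9, Irf7, B2m, H2-K1 and H2-D1; other members named were chosen after their values were seen. Pathway genes were named where called, up to 3 per direction in a region, with Ifngr1, Ifngr2 and Mx1 always. Alternatives covered scaling, the filter, the estimate of the spread, array weights, fold limits, reference regions and leaving out each array. Promoter sequences are from RefSeq, GRCm38.p6, which also gave gene positions. The labels give no batch or date. The number of arrays limits the precision.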

Additional observations from a re-analysis of the deposited data

Results flagged for a closer look

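For each of the 35 members in each of the 10 groups, the 4 arrays were checked for 1 that stood far from the other 3 (a gap beyond Dixon's 95% critical value). This held for 16 of 350 sets, or 4.57%, where chance flags about 1 in 20, with 8 arrays high and 8 low. In Ala striatum, replicate 36 was high for Ifnar2 (11.18, the others 10.23 to 10.26) and Usp18 (5.99, the others 5.00 to 5.14), replicate 35 was high for Parp14, which makes an ADP-ribosyltransferase (5.80), and replicate 34 was low for Ifitm2 (8.17). In Thr striatum, replicate 39 was high for Psmb9 (4.89, the others 3.88 to 4.00) and low for Rtp4 (4.38).

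In Ala prefrontal cortex, Eif2ak2 was low on replicate 25 (5.84, the others 6.33 to 6.42), H2-D1 on replicate 27 (4.15) and Irf7 on replicate 26 (2.74). In Ala amygdala, Usp18 was low on replicate 2 (4.24, the others 4.94 to 5.05), Ifit2 was high on replicate 3 (6.81, the others 5.88 to 5.99) and Rsad2 was low on replicate 4 (3.07). In hippocampus, Isg15 was high on Ala replicate 20 (4.89) and Oas1a low on Thr replicate 24 (3.01). In cerebellum, Bst2 was high on Thr replicate 16 (6.45, the others 5.49 to 5.55) and Tap2 on Ala replicate 11 (5.17, the others 4.90 to 4.92).

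Usp18 was higher in every Ala array than in every Thr array of cerebellum and lower in every one of prefrontal cortex, and the 2 differences stand 1.08 log2 units apart. The difference between this pair of regions was not tested by itself, and the limma F-test over all 5 regions gave an adjusted p of 1.00.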

How the results depend on the processing

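No paired analysis was possible because the groups compared share no replicate numbers in the labels. The 0 members called between genotypes stayed 0 in every region, in the mean and in the test between regions under all alternatives run, and for 9 named differences all 434 alternatives kept the direction and the side of the threshold: Stat2 in cerebellum was 2.90 to 3.03, H2-D1 1.66 to 1.82 and Ifi27 -1.34 to -1.02. The H2-D1 range only describes its values, since that gene passed the filter through cerebellum alone. H2-D1 is not tested when dim genes are filtered at the median, which leaves 2 called members in cerebellum. With a limit of 0.5 log2 units the called members were 3 in amygdala (18.3% of all genes), 7 in cerebellum (39.4%), 2 in hippocampus (16.2%), 2 in prefrontal cortex (15%) and 5 in striatum (26.8%). With no size limit they were 5, 11, 6, 3 and 9, beside the shares of all genes given above by direction. H2-D1 is among the latter counts in every region, and among those at 0.5 log2 units in amygdala and cerebellum, with the same reservation. Leaving out each array gave 0 to 1 in prefrontal cortex (Ifit2, in 12 cases), 0 to 1 in amygdala (Xaf1, without Thr amygdala replicate 5) and 3 in every case in cerebellum. Without the 3 arrays of highest member mean, a choice made after seeing the data, Xaf1 was called in striatum, 1 member against 0. Other scalings moved the median of all genes by less than 0.1 in each comparison. Using all rows of a gene changes nothing, since each member has 1 row. Members within the background range limit what these arrays can show.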
